A study of Mus musculus with 10 samples.

Results

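Nlrc5, Ciita, Cd74, H2-Aa, H2-Ab1 and H2-Eb1 were examined in ATAC-seq data of Myc-CaP cells, a mouse prostate cancer line. Called intervals of the 5 peak lists were kept where they overlapped 1 of these 6 genes, extended by 20 kb on each side (GENCODE M21, mm10). The rule found 306 of 748625 intervals, and joining intervals that overlap between lists gave 87 of 211107 merged regions. Of the 87 regions, 33 lay at Nlrc5, 26 at Ciita, 15 at the H2 genes and 13 at Cd74. Within 1 kb of an annotated transcript start of any gene lay 21 of them, and of the others 36 lay in introns, 12 touched exons and 18 lay between genes.

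NLRC5 and CIITA are related proteins of the NOD-like receptor family that bind no DNA themselves. They are recruited by the RFX, CREB and NF-Y factors assembled on the X and Y boxes of their target promoters, where NLRC5 activates MHC class I genes and CIITA activates MHC class II genes. H2-Aa, H2-Ab1 and H2-Eb1 encode chains of the class II molecules that present peptides to CD4+ T cells, and Cd74 encodes the invariant chain that guards the class II groove before peptide loading. Class II genes are used constitutively by B cells, dendritic cells and macrophages, and in many other cells they are induced by IFNγ through the promoter of Ciita named IV.

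The line was derived from the FVB/NJ strain, and 10 libraries formed 5 groups of 2 harvested at 48 h. The groups were untreated cells (Ctrl) and cells given 2 µM oxaliplatin (Oxali), 2 µM cisplatin (Cispl), IFNγ (1000 pg, given as 1 ng/ml in the methods) or Oxali with IFNγ at the same amounts (Oxali + IFNγ, also called the combination). The comparisons ask how the platinum drugs and the cytokine, alone or together, changed chromatin accessibility. The authors pooled the 2 libraries of a group before peaks were called, so each group is 1 list. Differences are therefore between pooled lists with no replicate spread to compare them with, and carry intervals for counting error only. By genome background, the depth of the treated lists was 79.3% (IFNγ) to 113% (Cispl) of Ctrl.

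The 2 class II promoters held by the RefSeq promoter table (GRCm38.p6, 300 bases around the start, genes Nlrc5, Ciita, H2-Ab1 and Cd74 not among its entries) are shown because they carry the element that the class II activator acts through. Capitals mark the X box core GCAAC, the X2 box TGACG and the Y box GATTGG on either strand, all as exact letters. H2-Aa lies on the minus strand at chr17:34287774-34288073, and H2-Eb1 lies on the plus strand at chr17:34305617-34305916. The third sequence is the summit of a called region 4.1 kb past the upstream start of H2-Ab1, chr17:34261659-34261859. It lies upstream of the protein-coding starts of that gene (from chr17:34263209). Its boxes stand on the minus strand and appear as their complements.
H2-Aa promoter: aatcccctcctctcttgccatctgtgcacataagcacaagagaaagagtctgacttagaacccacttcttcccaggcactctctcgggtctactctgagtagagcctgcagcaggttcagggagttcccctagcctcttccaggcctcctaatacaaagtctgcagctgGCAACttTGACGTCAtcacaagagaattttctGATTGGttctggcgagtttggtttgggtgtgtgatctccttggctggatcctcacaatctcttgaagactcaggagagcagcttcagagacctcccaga
H2-Eb1 promoter: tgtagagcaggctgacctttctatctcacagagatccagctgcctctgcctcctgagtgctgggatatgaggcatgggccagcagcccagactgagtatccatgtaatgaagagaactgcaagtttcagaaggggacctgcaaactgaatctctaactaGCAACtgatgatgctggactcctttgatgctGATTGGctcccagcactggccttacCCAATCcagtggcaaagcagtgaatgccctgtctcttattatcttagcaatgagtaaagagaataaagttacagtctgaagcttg
H2-Ab1 intronic summit: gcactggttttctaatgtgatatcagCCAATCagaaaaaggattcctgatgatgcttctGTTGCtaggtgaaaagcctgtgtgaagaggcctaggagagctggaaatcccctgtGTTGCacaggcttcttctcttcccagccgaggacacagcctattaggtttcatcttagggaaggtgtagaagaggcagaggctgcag

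In the H2-Aa promoter the X core stood at bases 170 to 174, an X2 box on each strand overlapped between bases 177 and 184, and the Y box stood at bases 202 to 207. In the H2-Eb1 promoter the X core stood at bases 160 to 164 and the Y box at bases 191 to 196. An X core followed on the same strand by a Y box after 15 to 30 bases, a spacing chosen after these promoters were seen, was present in 0.289% of all 32851 promoters of the table. Among the 201-bp windows centred on the summits, it was present in 4 of the 87 windows at the listed genes and in 0.0947% of all 211094 windows that could be read. The 4 windows were those of H2-Aa, H2-Eb1, the intronic H2-Ab1 region and the start of H2-Ob, which encodes a chain of a class II accessory molecule. Matches are exact letters and do not show that a factor was bound.

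The lists differed in how many intervals they held at the 6 genes. There were 46 intervals in Ctrl, 69 with Oxali, 69 with Cispl, 45 under IFNγ and 77 with the combination. They covered 18614, 29963, 29573, 18670 and 36330 bp in that order. The lists held 122298, 158621, 174048, 118949 and 174709 intervals over the genome, so the 3 lists with a platinum drug held more calls there too.

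Intervals with q-values up to 0.01 were counted as strong, and a strong interval of a treated list was gained when it shared no base with a Ctrl interval. At Nlrc5, 9 of 23 strong intervals were gained with Oxali, 8 of 24 with Cispl, 5 of 18 under IFNγ and 12 of 27 with the combination. At Ciita and the class II genes together, 18 of 44, 17 of 44, 2 of 24 and 21 of 46 were gained. Over the genome, 32.5% of strong Oxali intervals, 37.3% of Cispl intervals, 12.9% of IFNγ intervals and 38.4% of Oxali + IFNγ intervals were gained. The shares at Nlrc5 were 39.1%, 33.3%, 27.8% and 44.4%, with 95% Wilson intervals of 22.2 to 59.2, 18.0 to 53.3, 12.5 to 50.9 and 27.6 to 62.7%. Those at Ciita and the class II genes were 40.9%, 38.6%, 8.3% and 45.7%. The genome shares lay inside the Wilson intervals of both gene groups in all 4 comparisons. All 4 comparisons share the Ctrl list.

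Losses were counted in the same way, as strong Ctrl intervals with no treated interval. Of 17 strong Ctrl intervals at Nlrc5, 2 were lost with Oxali, 1 with Cispl, 3 under IFNγ and 1 with the combination. Of 27 at Ciita and the class II genes, the only losses were the 3 with IFNγ. The genome shares were 9.11%, 5.9%, 15.8% and 7.59%.

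Of the 87 merged regions, 32 (36.8%) were called in all 5 lists, against 40.4% over the genome, and 48 were missing from Ctrl, as were 47.6% of all merged regions. Called with Oxali, Cispl and Oxali + IFNγ but in neither Ctrl nor IFNγ were 12 regions, 4 at Nlrc5, 4 at Ciita, 3 at the H2 genes and 1 at Cd74, and 11.1% of all merged regions had this pattern. Called in every treated list but not in Ctrl were 3 regions, 1 each at Nlrc5, Ciita and Cd74, a pattern held by 2.38% of all regions. Called with Oxali + IFNγ only were 12 regions (8.2% of all regions had this pattern), with levels of 1.94 to 3.25. Called with IFNγ only were 4 regions, all at Nlrc5, while 2.55% of all regions had this pattern. Their levels were 2.18 to 4.16.

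The level of a region is the highest count of cut ends in a 150-bp window, as recovered from the deposited scores, divided by the genome background of its list. At the genome background a call needed a level of 1.73 in Ctrl, 1.77 with Oxali, 1.96 with Cispl, 1.87 under IFNγ and 1.7 with the combination, and more where the local background was higher. A region missing from a list has no level there. Over the listed genes, levels ranged from 1.78 to 153, with medians of 6.67 in Ctrl, 6.48 with Oxali, 7.19 with Cispl, 5.72 under IFNγ and 5.66 with the combination.

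**Figure D1:**
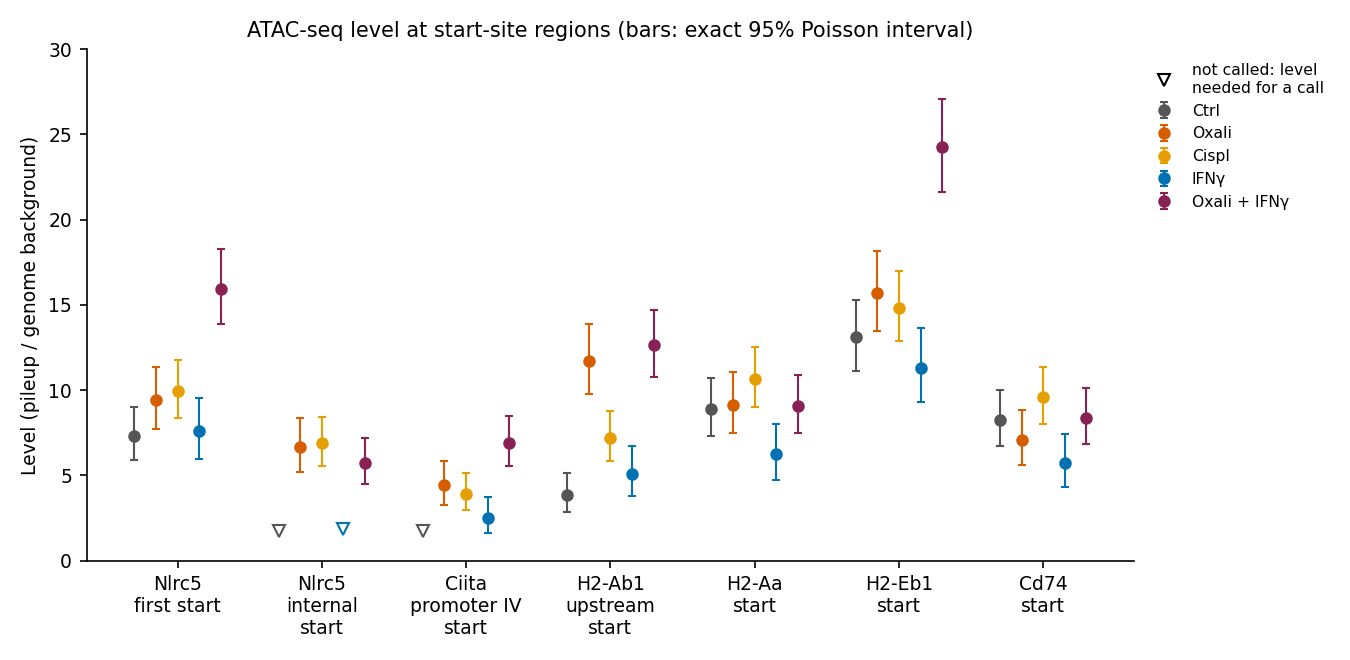
Level (pileup over the genome background of its list, linear axis) at 7 start-site regions of the 6 genes. Points are the 5 lists, bars are exact 95% Poisson intervals, and open triangles mark the level a call needed where a region was not called. Oxali + IFNγ is highest at the first start of Nlrc5 (16.0), at promoter IV of Ciita (6.90) and at H2-Eb1 (24.3), while the lists lie closer together at H2-Aa and Cd74.

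Nlrc5 (chr8:94434356-94527272, plus strand) was open at its first start in every list. The region there (chr8:94433601-94434720) had pileups of 89 in Ctrl, 106 with Oxali, 137 with Cispl, 73 under IFNγ and 206 with the combination, or levels of 7.33, 9.40, 9.95, 7.59 and 16.0. The first 4 levels had overlapping intervals, and the level with Oxali + IFNγ stood above the other lists. It was 2.18 times the Ctrl level (95% exact conditional interval 1.69 to 2.82), 1.70 times the Oxali level (1.34 to 2.17) and 2.1 times the IFNγ level (1.60 to 2.79). The ratios over Ctrl were 1.28 (0.959 to 1.72) with Oxali, 1.36 (1.03 to 1.79) with Cispl and 1.03 (0.749 to 1.43) with IFNγ. The start is shared with 9330175E14Rik, so the 2 genes cannot be told apart there.

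Among all start-site regions of protein-coding genes called in both lists, a level at least 1.5 times higher was found in 12.4% for Oxali + IFNγ over Ctrl and in 1.55% for Oxali + IFNγ over Oxali. The ratio over Ctrl moved with the Ctrl level. Start-site regions with Ctrl levels of 5 to 10, the range that holds Nlrc5, had a median ratio of 1.27 with Oxali + IFNγ, and 37.1% of them were at least 1.5 times higher. Those with Ctrl levels of 50 or more had a median ratio of 0.509. The part of this genome-wide shift in the ratio at Nlrc5 was not tested.

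An intronic region 9.2 kb past the first start (chr8:94442859-94444271) was called in the 3 platinum lists only. Its pileup was 46 with Oxali, 41 with Cispl and 129 with the combination, or levels of 4.08, 2.98 and 10.0. Adding IFNγ to Oxali went with a level 2.45 times higher (1.74 to 3.51), and this was the highest Oxali + IFNγ over Oxali ratio of the 58 regions called in both lists at the 6 genes. The nearest Ctrl interval lay 8357 bp away.

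A region at an internal start of a protein-coding transcript, 35.5 kb past the first start (chr8:94469456-94470292), was also called in the platinum lists only. The levels were 6.65 with Oxali, 6.90 with Cispl and 5.73 with the combination, and the ratio of Oxali + IFNγ over Oxali was 0.862 (0.617 to 1.20). The addition of IFNγ to Oxali thus went with a higher level at the first start and at 9.2 kb, while the interval at this internal start included 1. Other regions of the gene body followed the platinum drugs as well. At 74.2 kb (chr8:94508302-94508744) the levels were 6.30, 5.96 and 4.49 in the same 3 lists.

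A region at 59.0 kb (chr8:94493017-94493714) reached higher levels, 13.3 with Oxali, 11.7 with Cispl and 14.7 with the combination. It lay 94 bp from a Ctrl interval of the neighbouring region (chr8:94491841-94492932), whose levels were 71.8 in Ctrl, 50.03 with Oxali, 55.7 with Cispl, 62.3 under IFNγ and 52.6 with the combination. The neighbour was 0.867 times Ctrl with IFNγ, or 1.03 times when scaled by the regions called in all lists, and the local background at 59.0 kb was 36.5 to 48.7 pileup units. Whether a wider footprint of the neighbour gives these calls was not tested.

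Of the Nlrc5 regions called in all 5 lists, those at 82.0, 44.2 and 94.2 kb had the widest ranges of level. At 82.0 kb (chr8:94515310-94517376) the levels were 6.67 in Ctrl, 10.3 with Oxali, 21.4 with Cispl, 4.68 under IFNγ and 11.2 with the combination. The region has several summits, and the highest lay 1.2 kb further on with Oxali and the combination than in the other lists. At the summit near chr8:94515676, present in all 5 lists, the levels were 6.67, 9.31, 21.4, 4.68 and 10.8. Cispl stood alone at that summit, 3.21 times above Ctrl (2.50 to 4.16) and 2.30 times above Oxali (1.84 to 2.90). At the summit near chr8:94516890 the levels were 4.78, 10.3, 10.7, 4.37 and 11.2, and the Cispl over Oxali ratio was 1.04 (0.808 to 1.34). At 44.2 kb (chr8:94478389-94478699) the levels were 2.72, 7.72, 8.86, 2.81 and 5.89. The 3 platinum lists were above the other 2, with a ratio over Ctrl of 2.84 (1.88 to 4.38) for Oxali.

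Just past the 3′ end, at 94.2 kb (chr8:94528233-94528901), the levels were 10.4 in Ctrl, 23.9 with Oxali, 22.5 with Cispl, 6.24 under IFNγ and 19.1 with the combination. The Oxali level was 2.31 times the Ctrl level (1.86 to 2.87), and the IFNγ level was 0.601 times (0.434 to 0.823). Scaled instead by the regions called in all lists, the IFNγ ratio was 0.714. The most open of the annotated Nlrc5 starts, at 90.4 kb (chr8:94524280-94525311), had levels of 26.7, 32.5, 31.2, 23.0 and 27.6, and its ratios over Ctrl ran from 0.861 to 1.22.

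The internal start region at 47.9 kb (chr8:94482081-94482406) had levels of 5.68, 3.99, 4.50, 3.74 and 4.80, with the treated lists at or below Ctrl. Calls present in Ctrl and missing from several treated lists were weak. The region at 87.3 kb (chr8:94521600-94521763) was called in Ctrl (level 4.37) and with Cispl (5.45) only, over local backgrounds of 21.4 and 34.0. The region at 99.2 kb (chr8:94533453-94533619), beside the start of Cpne2, was called in Ctrl (2.88) and with Oxali + IFNγ (4.42) only.

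**Figure D2:**
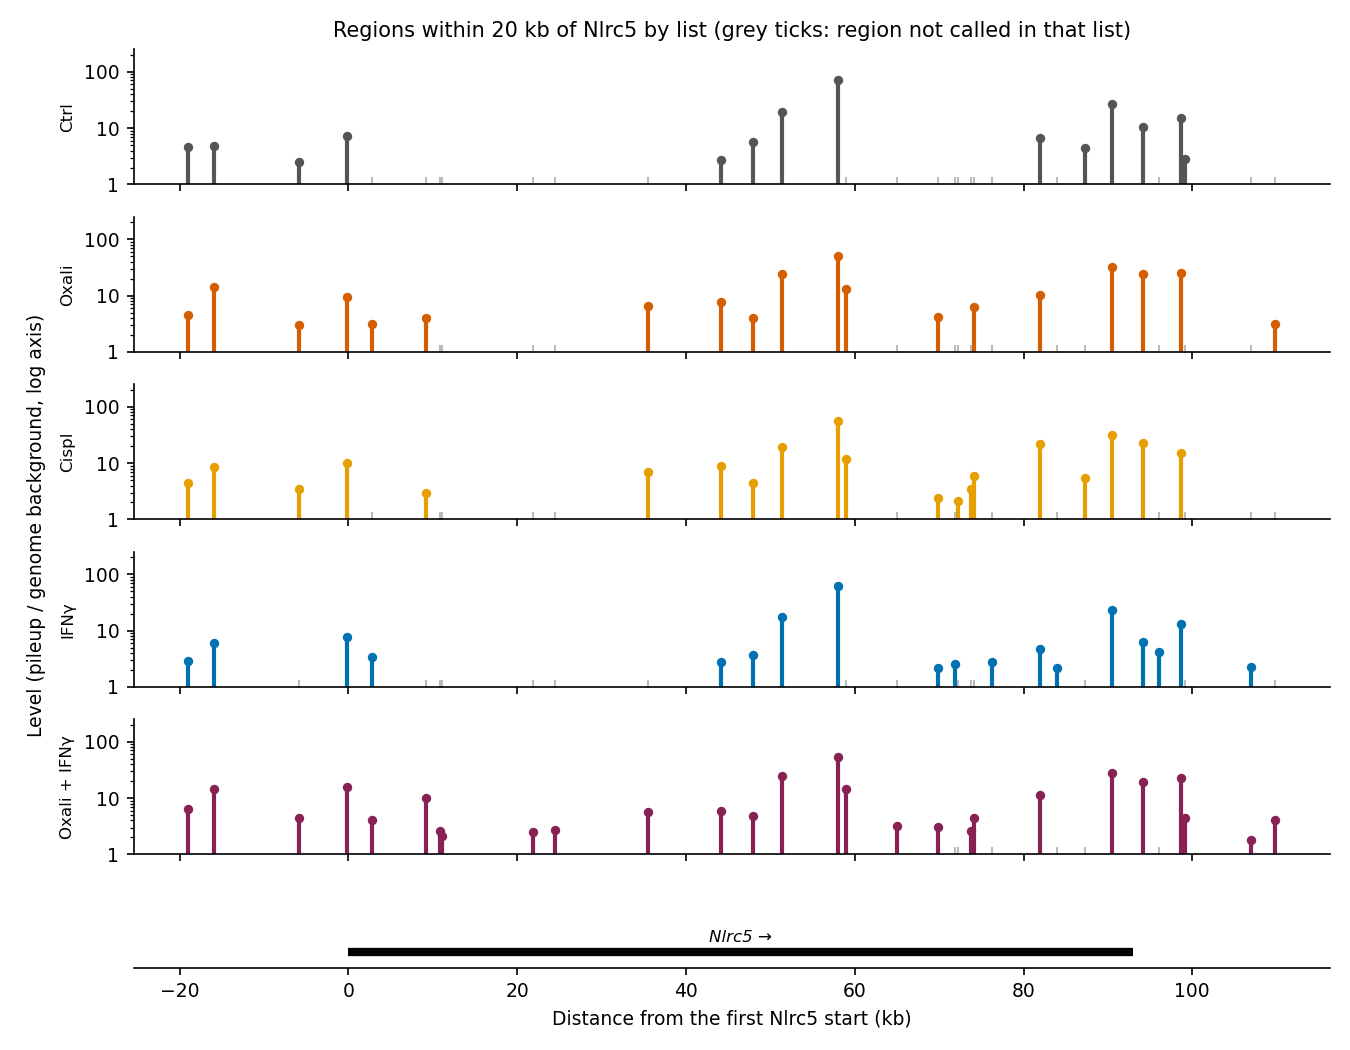
Level of the 33 regions at Nlrc5 (log axis) against distance from its first start (kb), with 1 row of stems per list. Grey ticks mark regions not called in a list and the bar is the gene. The stems at 9.2, 35.5 and 59.0 kb are present in the 3 platinum lists and absent from Ctrl and IFNγ.

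The summits of 3 Nlrc5 regions are printed in the reading direction of the gene because the first and second were missing from Ctrl and the third had the widest range of level among those called in all lists. Each is the 201-bp window on the summit of the list with the highest level. Capitals mark the NF-κB consensus, AP-1 (TGANTCA), E box (CACGTG), GAS (TTCNNNGAA) and interferon response (GAAANNGAAA) letters on either strand. They lie at chr8:94443360-94443560 (9.2 kb), chr8:94493441-94493641 (59.0 kb) and chr8:94515583-94515783 (82.0 kb).
Nlrc5 at 9.2 kb: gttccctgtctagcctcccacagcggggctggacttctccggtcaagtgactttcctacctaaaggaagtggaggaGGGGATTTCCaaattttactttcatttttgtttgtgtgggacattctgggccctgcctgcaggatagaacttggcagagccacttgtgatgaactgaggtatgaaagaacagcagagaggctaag
Nlrc5 at 59.0 kb: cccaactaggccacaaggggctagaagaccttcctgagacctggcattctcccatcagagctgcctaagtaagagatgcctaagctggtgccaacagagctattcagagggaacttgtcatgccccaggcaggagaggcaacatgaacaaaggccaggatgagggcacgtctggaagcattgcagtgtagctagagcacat
Nlrc5 at 82.0 kb: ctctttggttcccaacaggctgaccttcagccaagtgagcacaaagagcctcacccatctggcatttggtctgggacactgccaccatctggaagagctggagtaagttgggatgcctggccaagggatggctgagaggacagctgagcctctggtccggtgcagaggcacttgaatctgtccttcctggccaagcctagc

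The 9.2-kb window held an NF-κB match at bases 77 to 86, a motif added after the sequence was seen, and none of the other letters. It was the only Nlrc5 window of 33 with this match, which was present in 6 of the 87 windows of the 6 genes and in 2.55% of all windows. The windows at 59.0 and 82.0 kb held none of the marked motifs. The interferon response letters were present in 2 of the 87 windows (2.58% of all windows). These were the windows on the first start of Nlrc5 and on promoter IV of Ciita, and their share (2.3%) was near that of all windows. GAS letters were also present in 2 windows (6.05% of all windows), 1 beside H2-Eb1 and 1 in the Nlrc5 intron called with Oxali + IFNγ only.

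Ciita (chr16:10480059-10528418, plus strand) has 3 groups of annotated starts, and those upstream (promoters I and III) had no called region within 1 kb in any list. Promoter IV did. Its region (chr16:10489375-10490625) was not called in Ctrl and had pileups of 50 with Oxali, 54 with Cispl, 24 under IFNγ and 89 with the combination, or levels of 4.44, 3.92, 2.49 and 6.90. It was thus called in every treated list, weakest with IFNγ alone and highest with the combination. The interval of the IFNγ level, 1.6 to 3.71, held the level of 1.73 that a call needed in Ctrl. The combination was 1.56 times the Oxali level (1.09 to 2.24) and 2.76 times the IFNγ level (1.75 to 4.54). Scaled by the regions called in all lists, the ratio over IFNγ was 2.11. The local background equalled the genome background in all 4 lists, and the nearest Ctrl interval lay 11070 bp away. Without a Ctrl level no ratio over Ctrl can be given.

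Of the distal Ciita regions open in all lists, the 2 with the widest ranges were highest with the combination. Those at 21.9, 42.9 and 47.3 kb were highest in Ctrl (5.19), with Cispl (19.3) and with Cispl (9.88). The region 14.6 kb upstream of the first start (chr16:10464891-10466006) had levels of 11.5 in Ctrl, 14.5 with Oxali, 15.3 with Cispl, 8.73 under IFNγ and 25.1 with the combination. The combination stood above the other lists, 2.18 times Ctrl (1.78 to 2.67) and 1.74 times Oxali (1.43 to 2.11). An exonic region 31.0 kb past the start (chr16:10510492-10511684) had levels of 13.1, 22.7, 17.5, 10.6 and 29.8. There Oxali alone was 1.73 times Ctrl (1.42 to 2.13) and the combination 1.31 times Oxali (1.12 to 1.54). The 31.0-kb region lies within an intron of Dexi on the other strand.

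Both summits are printed on the plus strand, at chr16:10465414-10465614 and chr16:10510860-10511060, with capitals as in the Nlrc5 windows. Each held an AP-1 match, and the upstream window also held an E box at bases 57 to 62.
Ciita 14.6 kb upstream: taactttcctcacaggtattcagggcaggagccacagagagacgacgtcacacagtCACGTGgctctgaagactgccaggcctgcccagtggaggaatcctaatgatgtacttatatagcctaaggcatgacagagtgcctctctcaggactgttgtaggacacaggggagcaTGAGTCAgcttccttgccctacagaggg
Ciita at 31.0 kb: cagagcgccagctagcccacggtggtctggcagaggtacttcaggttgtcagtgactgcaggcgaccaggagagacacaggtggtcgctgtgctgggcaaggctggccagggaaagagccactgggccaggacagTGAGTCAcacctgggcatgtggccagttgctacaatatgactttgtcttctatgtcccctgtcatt

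Further regions missing from Ctrl were weaker or stood beside stronger ones. The region 11.6 kb upstream (chr16:10468316-10468513) had levels of 3.02 with Oxali, 2.83 with Cispl and 4.96 with the combination. A region at 46.1 kb was called with Cispl only (level 4.87, over a local background of 35.5). The region at 61.7 kb (chr16:10541669-10541879) reached levels of 19.6 with Oxali, 19.5 with Cispl and 22.2 with the combination, but its local background was 97.9 to 122 pileup units and a Ctrl interval lay 638 bp away.

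That neighbour was the start of Dexi (chr16:10542387-10543349), the most open region near Ciita. Its levels were 153 in Ctrl, 99.1 with Oxali, 81.1 with Cispl, 104 under IFNγ and 69.5 with the combination, a ratio of 0.453 (0.418 to 0.491) for the combination. Start-site regions with Ctrl levels of 50 or more had a median ratio of 0.509 with the combination, so the Dexi ratio was near that of its class.

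**Figure D3:**
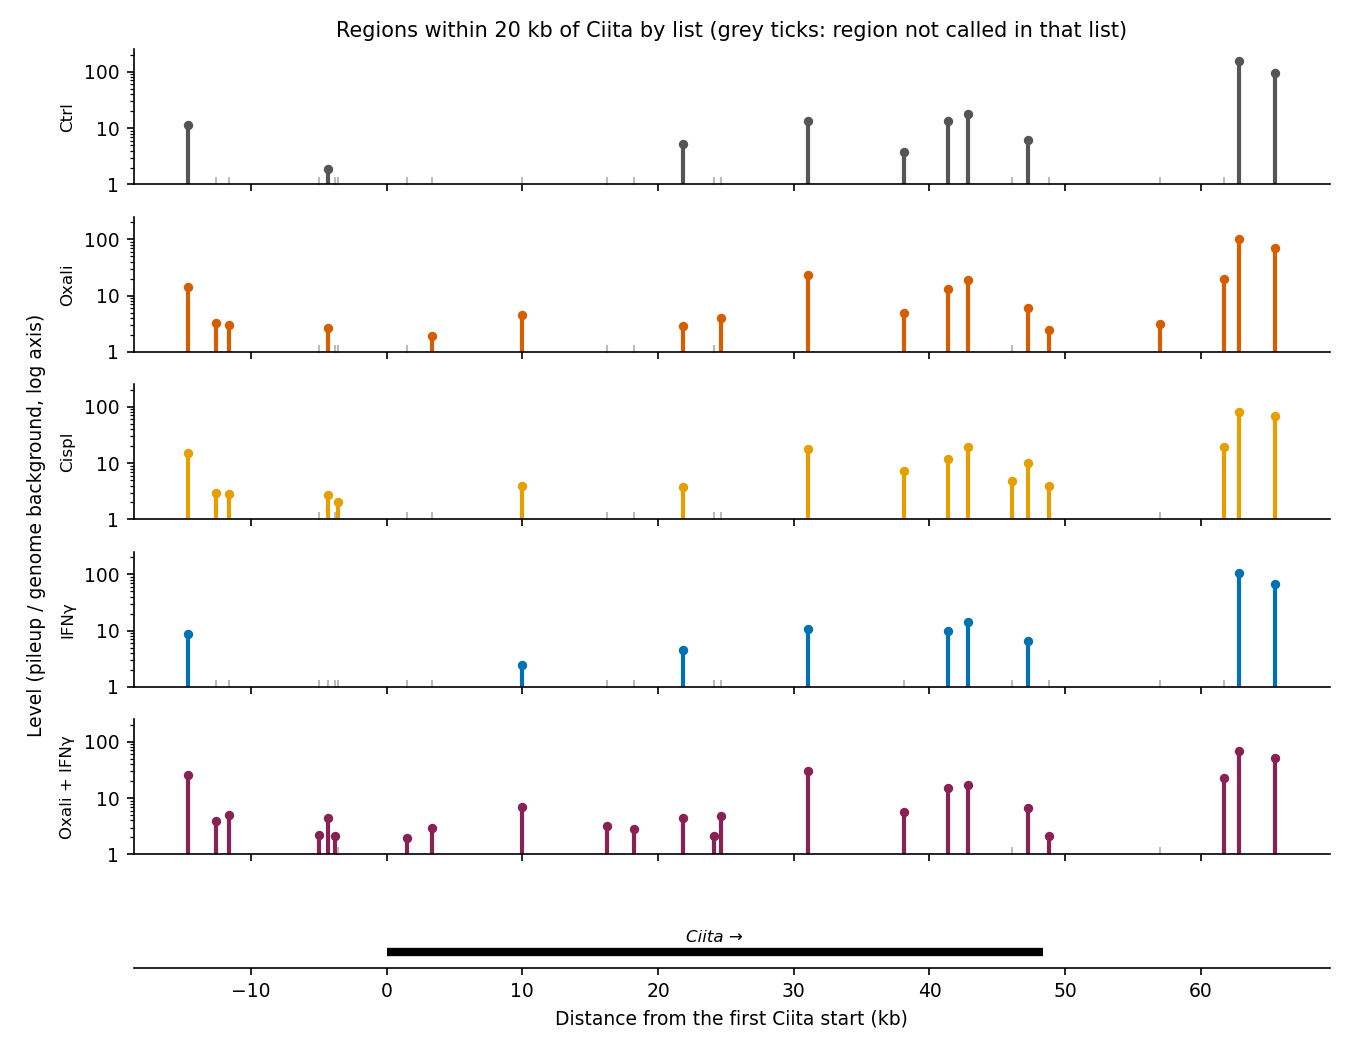
Level of the 26 regions at Ciita (log axis) against distance from its first start (kb), with 1 row of stems per list. Grey ticks mark regions not called in a list. The stem at 9.9 kb, promoter IV, is absent from Ctrl and present in the 4 treated lists, and the tall stem at 62.8 kb is the start of Dexi.

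The 3 H2 genes lie in 1 cluster on chromosome 17. H2-Eb1 (chr17:34305867-34316674) encodes a β chain, and the region at its start (chr17:34305570-34306386) had pileups of 159 in Ctrl, 177 with Oxali, 204 with Cispl, 109 under IFNγ and 313 with the combination. The levels were 13.1, 15.7, 14.8, 11.3 and 24.3. The combination stood above the other 4 lists, whose intervals overlapped, at 1.85 times Ctrl (1.52 to 2.26) and 1.54 times Oxali (1.28 to 1.87). A region 0.8 kb upstream (chr17:34304833-34305319) was ordered in the same way in its highest and lowest lists, with levels of 6.26, 7.98, 7.34, 5.20 and 9.38. The antisense gene Gm20513 overlaps both regions.

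H2-Aa (chr17:34282744-34287823, minus strand) encodes the α chain of the I-A molecule. Its start region (chr17:34287580-34288063), over the promoter printed above, had levels of 8.90 in Ctrl, 9.14 with Oxali, 10.7 with Cispl, 6.24 under IFNγ and 9.07 with the combination. The intervals of Ctrl, Oxali and the combination overlapped, with a combination over Ctrl ratio of 1.02 (0.778 to 1.34). The IFNγ level was 0.701 times Ctrl (0.502 to 0.970), and 0.833 times when scaled by the regions called in all lists. The Cispl over Ctrl ratio at H2-Aa was 1.20 (0.93 to 1.55). IFNγ was the lowest list at the starts of both H2-Aa and H2-Eb1. Both promoters carried the X and Y boxes, whose part in these levels was not tested.

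H2-Ab1 (chr17:34257689-34269419) encodes the β chain of I-A. The region at its upstream start, that of a processed transcript (chr17:34257661-34258411), had pileups of 47, 132, 99, 49 and 163 in Ctrl, Oxali, Cispl, IFNγ and Oxali + IFNγ. The levels were 3.87, 11.7, 7.19, 5.09 and 12.6, and the 3 platinum lists stood above Ctrl. The region has 2 summits about 0.4 kb apart, and at that near chr17:34258175 the pileups were 47, 132, 99, 47 and 163. The ratios over Ctrl at that summit were 3.03 (2.15 to 4.32) with Oxali, 1.86 (1.30 to 2.69) with Cispl and 3.26 (2.35 to 4.62) with the combination, which was 1.08 times Oxali (0.852 to 1.37). At the other summit, near chr17:34257772, they were 1.77 (1.19 to 2.66), 2.08 (1.44 to 3.06) and 2.04 (1.40 to 3.01). At the start of the protein-coding transcripts, chr17:34263209, no region was called within 1 kb in any list.

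The intronic region with the X and Y boxes printed above (chr17:34261395-34262092) was singled out after its values were seen. It ends over 1 kb upstream of the first protein-coding start, chr17:34263209. Its levels were 2.97 in Ctrl, 9.31 with Oxali, 5.09 with Cispl and 9.69 with the combination, and it was not called with IFNγ. The region 5.8 kb upstream of H2-Ab1 (chr17:34251668-34252071), in an intron of H2-Ob, had levels of 5.19, 9.05, 9.01, 5.09 and 13.6. The combination was 2.63 times Ctrl there (1.96 to 3.56) and 1.51 times Oxali (1.17 to 1.94). These regions were named for their start, their range or after their values were seen. Over the 7 regions at H2-Ab1 called in both lists, the median ratio over Ctrl was 1.15 with Oxali, 1.49 with Cispl and 1.65 with the combination, against 1.14, 1.09 and 1.13 over the genome. At least 1.5 times higher were 3, 3 and 4 of the 7, against 29.2%, 25.5% and 30.4% over the genome. The 7 had Ctrl levels of 2.97 to 8.9. Regions of the genome with Ctrl levels under 5 had medians of 1.48, 1.47 and 1.52. Of them, 49.0%, 48.1% and 50.9% were at least 1.5 times higher. At Ctrl levels of 5 to 10 the medians were 1.25, 1.25 and 1.27, and the shares were 35.6%, 32.3% and 37.4%.

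The summit windows upstream of H2-Ab1 (chr17:34251692-34251892) and downstream of its upstream start (chr17:34258083-34258283) are printed on the plus strand with capitals as for Nlrc5. The second held the letters TGANTCA at 2 places, bases 62 to 68 and 154 to 160, while the first held none of the marked motifs. Over all 87 windows, 11 held TGANTCA (12.6%), against 21.0% of all windows.
H2-Ab1 5.8 kb upstream: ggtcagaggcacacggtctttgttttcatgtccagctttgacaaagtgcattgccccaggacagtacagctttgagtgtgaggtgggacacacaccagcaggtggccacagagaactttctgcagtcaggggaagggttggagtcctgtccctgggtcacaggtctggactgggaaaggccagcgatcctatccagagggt
H2-Ab1 upstream start: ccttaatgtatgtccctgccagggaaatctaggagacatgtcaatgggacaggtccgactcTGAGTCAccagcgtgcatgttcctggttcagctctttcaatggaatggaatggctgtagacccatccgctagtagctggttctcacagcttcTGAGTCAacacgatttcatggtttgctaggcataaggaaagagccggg

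The H2 regions missing from Ctrl were weak. The regions 10.4 kb upstream of H2-Ab1, 11.5 kb into it, at its upstream start (0.9 kb) and 8.5 kb upstream of H2-Aa had levels of 2.48 to 4.58 in the platinum lists that called them, and none was called with IFNγ. The FVB strain differs from the reference genome in these polymorphic genes, and the effect on aligned reads was not tested.

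**Figure D4:**
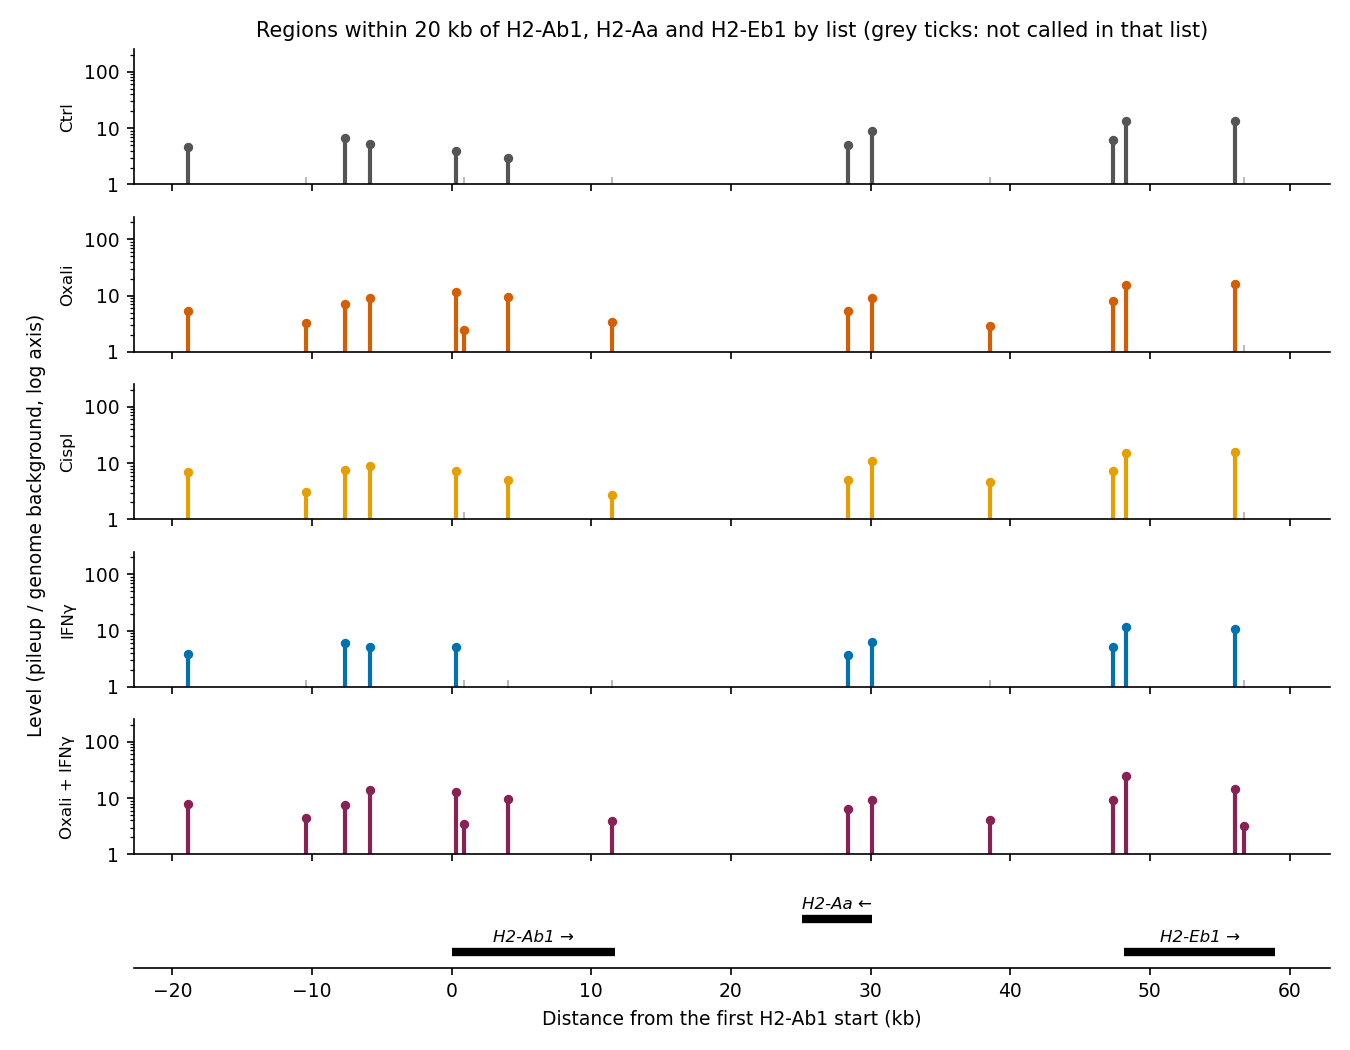
Level of the 15 regions around H2-Ab1, H2-Aa and H2-Eb1 (log axis) against distance from the first H2-Ab1 start (kb), with 1 row of stems per list and bars for the genes. Grey ticks mark regions not called in a list. The stems at 0.3 and 4.1 kb are taller with Oxali and Oxali + IFNγ than in Ctrl, while that at the H2-Aa start (30.1 kb) differs little.

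Cd74 (chr18:60803848-60812652) was open at its start in all lists (chr18:60803022-60804088), with levels of 8.24 in Ctrl, 7.10 with Oxali, 9.59 with Cispl, 5.72 under IFNγ and 8.37 with the combination. Its ratios over Ctrl ran from 0.694 (0.490 to 0.974) with IFNγ to 1.16 (0.891 to 1.52) with Cispl, and the combination was 1.02 times Ctrl (0.767 to 1.35). A region 14.4 kb upstream (chr18:60789244-60789747) had levels of 8.65, 12.1, 8.14, 10.1 and 12.6, and an intronic region at 2.9 kb had levels of 5.68, 4.44, 6.18, 4.68 and 5.66. None of these 3 regions reached 1.5 times the Ctrl level in any list. The region 10.0 kb upstream, singled out after its values were seen, had levels of 6.43 in Ctrl, 10.2 with Oxali, 8.72 with Cispl and 7.67 with the combination, and was not called with IFNγ. Its ratio over Ctrl with Oxali was 1.59 (1.18 to 2.15), or 1.43 by the other scaling.

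Regions of Cd74 missing from Ctrl were found in several combinations of lists. The region 18.2 kb past the start, in an intron of Tcof1, had levels of 6.21 with Oxali, 9.30 with Cispl and 5.66 with the combination, and the nearest Ctrl interval lay 15001 bp away. The region 11.0 kb upstream was called in every treated list at levels of 2.91 to 5.16. The others, at 10.7, 8.2 and 4.2 kb upstream and at 0.9, 1.2 and 8.3 kb past the start, were called in 1 or 2 lists at levels of 2.09 to 5.09.

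Over all regions called in both lists, the median level ratio over Ctrl at Nlrc5 was 1.26 with Oxali (12 regions), 1.25 with Cispl (13), 0.867 under IFNγ (11) and 1.53 with the combination (13). At Ciita and the class II genes together it was 1.15, 1.16, 0.819 and 1.19, over 25, 25, 21 and 25 regions. With the combination the median was 1.57 at the H2 genes (10 regions), 1.1 at Ciita (10) and 1.02 at Cd74 (5). At the H2 genes 5 of 10 regions were at least 1.5 times higher, against 30.4% over the genome. Scaled by the regions called in all lists, 4 of 10 were, against 24.9%. The median Ctrl level at the H2 genes was 5.73. Of all regions with Ctrl levels under 5, 50.9% were at least 1.5 times higher with the combination, and of those at 5 to 10, 37.4% were. The genome medians were 1.14, 1.09, 0.854 and 1.13. Scaling by the regions called in all lists multiplied every ratio over Ctrl by 0.903, 0.953, 1.19 and 0.908 in that order (log2 shifts of -0.15, -0.07, 0.25 and -0.14). It put the genome medians at 1.03, 1.04, 1.02 and 1.03 and the Nlrc5 medians at 1.14, 1.19, 1.03 and 1.39. The ratios depended on the Ctrl level, whose median at Nlrc5 was 6.18. All regions of the genome with Ctrl levels of 5 to 10 had medians of 1.25 with Oxali, 1.25 with Cispl, 0.841 under IFNγ and 1.27 with the combination, so the Nlrc5 medians with each platinum drug alone were close to those of that class. The IFNγ medians turn from below to above 1 at Nlrc5 with the scaling and stay near the genome median.

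Levels at least 1.5 times above Ctrl were found at Nlrc5 in 5 of 12 regions with Oxali, 4 of 13 with Cispl, 0 of 11 with IFNγ and 7 of 13 with the combination. At Ciita and the class II genes they were found in 5 of 25, 5 of 25, 0 of 21 and 9 of 25. The genome shares were 29.2%, 25.5%, 4.26% and 30.4%. Levels at least 1.5 times below Ctrl were found in 2 of 37 regions of the 6 genes with Oxali, 1 of 38 with Cispl, 3 of 32 with IFNγ and 2 of 38 with the combination, against genome shares of 7.68%, 12.0%, 18.4% and 14.3%. With the other scaling the Oxali count was 5 of 37, against a genome share of 13.7%. Start-site regions of the genome were at least 1.5 times above Ctrl in 11.9% with Oxali, 10.6% with Cispl and 1.05% with IFNγ. With the other scaling the IFNγ counts at the 6 genes were 2 higher and 0 lower of 32, against genome shares of 11.6% and 6.22%. The 2 were the upstream start of H2-Ab1 and a region 15.9 kb upstream of Nlrc5.

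The addition of IFNγ to Oxali compares 2 lists whose genome median ratio was 0.995. The median ratio was 1.05 at Nlrc5 (19 regions), 1.18 at Ciita (17), 1.17 at the H2 genes (14) and 1.05 at Cd74 (8). Of these 58 regions, 9 were at least 1.5 times higher, 2 at Nlrc5, 5 at Ciita and 2 at the H2 genes, and none was at least 1.5 times lower. Over the genome, 4.01% of regions were at least 1.5 times higher and 4.53% at least 1.5 times lower. The other scaling also gave 9 regions.

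**Figure D5:**
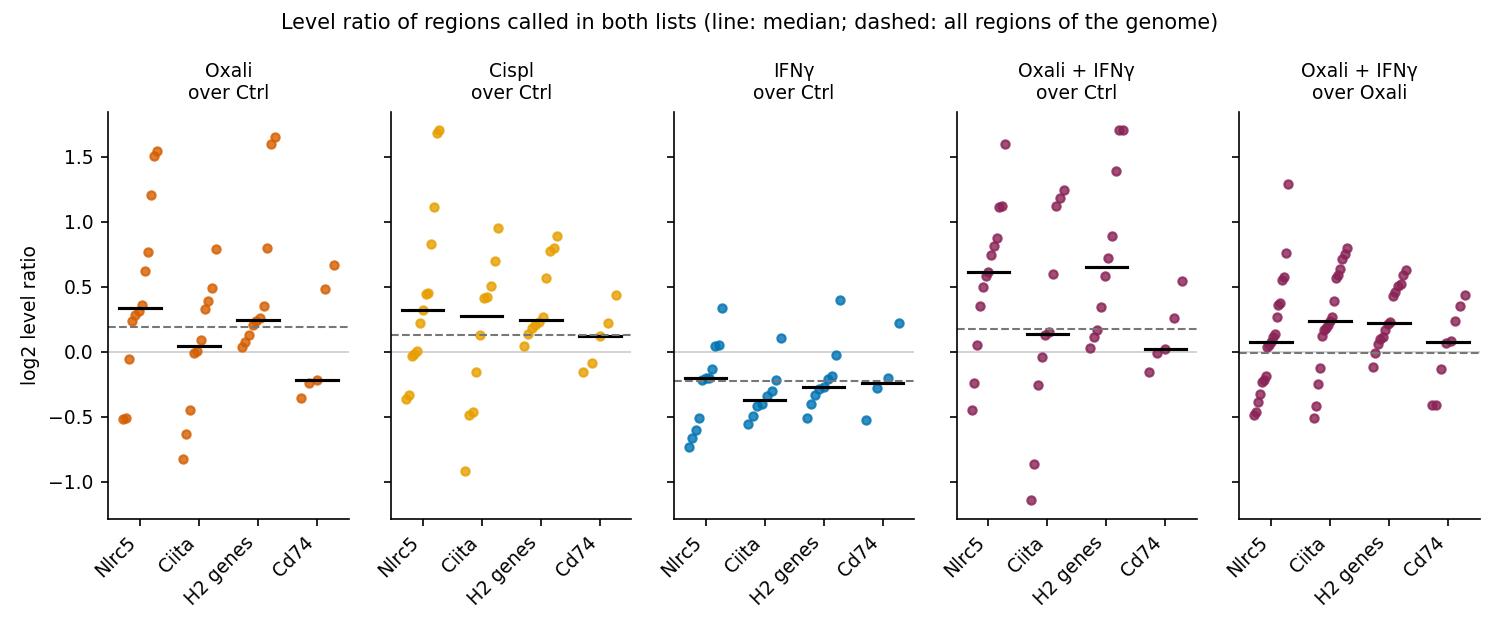
log2 level ratio of every region called in both lists, by gene, for 5 comparisons. Points are regions, black lines are medians per gene and dashed lines are genome medians. With IFNγ alone most points lie below 0, as does the dashed line, and with Oxali + IFNγ over Oxali the points at Ciita and the H2 genes lie mostly above the dashed line.

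Genes of the same machinery were described at their start sites. The 7 subunits of the promoter factors, Rfx5, Rfxap, Rfxank, Creb1, Nfya, Nfyb and Nfyc, were called in every list, with Ctrl levels of 89.4 to 187. Their levels were at least 1.5 times lower in 4 of 7 with Oxali, 6 with Cispl, 5 under IFNγ and 7 with the combination, and none was 1.5 times higher. Of all start-site regions with Ctrl levels of 50 or more, 37.2%, 69.4%, 49.2% and 82.5% were that much lower in the same lists. By the other scaling the counts were 5, 6, 2 and 7. Their median ratios over Ctrl were 0.648, 0.541, 0.597 and 0.501. The medians of that class were 0.702, 0.612, 0.669 and 0.509, and nothing particular to the 7 genes is read from their counts.

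Of 10 class II accessory genes, 6 had a called start-site region in Ctrl 3 (H2-Oa, H2-Eb2 and Ctss) had none in any list, and Ifi30 was not found by that name in the annotation. H2-DMb2, which encodes a chain of the peptide-loading H2-DM molecule, had levels of 2.06 in Ctrl, 4.44 with Oxali, 4.14 with Cispl and 4.65 with the combination, and was not called with IFNγ. H2-DMb1 and H2-Ob were at 1.60 and 1.65 times Ctrl with the combination, or 1.45 and 1.50 times by the other scaling. H2-DMa, Ctsl and Lgmn, with Ctrl levels of 134, 146 and 156, were at 0.391, 0.443 and 0.550 times Ctrl with the combination. Over all start-site regions the median ratio with the combination was 1.47 at Ctrl levels under 5, the class of H2-DMb2 and H2-Ob, 1.06 at 10 to 20, the class of H2-DMb1, and 0.509 at 50 or more.

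Of 7 other NOD-like receptor genes, 5 were called at a start site in Ctrl. Nod2, an intracellular sensor of bacterial cell wall fragments, had levels of 2.39 in Ctrl, 5.32 with Oxali, 5.38 with Cispl, 3.85 under IFNγ and 9.61 with the combination, a ratio of 4.02 for the combination. Nlrp3, which nucleates an inflammasome, was called with Oxali (4.26) and the combination (5.19) only. Nlrc4 was at 1.79 times Ctrl with Cispl. Nod1 was at 0.654 times Ctrl with IFNγ, or 0.778 times by the other scaling, and Nlrx1 was at 0.495 to 0.782 times Ctrl in the treated lists. Nlrp10 was not called.

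Of the 6 listed genes, 5 had a start-site region in Ctrl and 6 in each treated list, while of all protein-coding genes 60.6% had one in Ctrl, 63.3% with Oxali, 63.9% with Cispl, 60.1% under IFNγ and 64.6% with the combination. Markers of the line and of class II-positive blood cells were read in the same way. Among prostate epithelium markers, Krt8 and Hoxb13 were called in every list and Cdh1 in none. Of 9 blood cell markers 2 were called in Ctrl, 3 with Oxali, 4 with Cispl, 2 under IFNγ and 3 with the combination. Their summed levels were 9.3, 14.1, 13.4, 5.4 and 17.4, and the defining markers Cd79a, Itgam, Itgax, Flt3 and Cd3e had no called start-site region in any list.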

How the data were processed

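ATAC-seq libraries of Myc-CaP cells, 2 per group, were processed by the authors, who trimmed reads, aligned them to mm10 with Bowtie2 2.2.8, removed duplicates, pooled the 2 libraries of a group and called peaks with MACS2 2.1.0. The deposited fold of each peak is the ratio of pileup to local background, and its deposited −log10 p-value, −log10 q-value and score are those MACS2 wrote. Lists reached a −log10 p of 2.00, except Cispl (2.99).

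The whole-number pileup and the background were recovered from fold and −log10 p for 100% of peaks, by code tested on simulated data. Levels are pileup over genome background. Genes came from GENCODE M21, promoters from RefSeq. Intervals of ratios (exact conditional), pileups (exact Poisson) and shares (Wilson) are at 95% and cover counting error only. No test was made.

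Regions named were every region at a listed start and, per gene, up to 3 with the largest range, 4 missing from Ctrl and 2 missing from several treated lists. Pathway genes were named when 1.5 times from Ctrl or called in some lists only. Some prostate markers are not reported here. Members and lists were chosen with earlier results of these data known. Python 3.11.15, scipy 1.17.1 and pysam 0.24.0 were used.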

Additional observations from a re-analysis of the deposited data

How the results depend on the processing

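No paired analysis was possible because the 2 libraries of each group were pooled before peaks were called, and no library could be left out for the same reason. Of 120 alternatives to 28 results, 102 left the result within its 95% interval or within 1.5 times its count and 18 moved it. The ratio crossed 1 in 2 of the 102, both with IFNγ, from 0.867 to 1.03 for the Nlrc5 median when scaled by the regions called in all lists and from 1.03 to 0.82 at the first Nlrc5 start with no scaling. Keeping only regions whose summits lay within 150 bp in both lists, chosen after seeing the data, left all 8 medians in their intervals. With a q-value of at most 1e-05, gains were 11 of 36 at Ciita and the class II genes with Oxali and 5 of 20 at Nlrc5 with Cispl. With IFNγ they were 2 of 13 at Nlrc5 and 0 of 22 at the class II group. Losses at Nlrc5, of 14 intervals, were 1 with Oxali, 0 with Cispl and 1 with IFNγ. With a window of 5 kb, gains at Ciita and the class II genes were 9 of 25 with Oxali and 9 of 26 with Cispl. They were 1 of 15 under IFNγ and 13 of 29 with the combination. Losses at Nlrc5, of 12 intervals, were 1 with Oxali, 0 with Cispl and 1 with IFNγ. Both settings leave fewer intervals to count. Without intervals within 500 bp of the other list, an alternative chosen after seeing the data, losses at Nlrc5 were 1 with Oxali and 0 with Cispl. The median IFNγ over Ctrl ratio at Ciita and the class II genes was 0.974 when scaled by the regions called in all lists and 0.649 with no scaling, against 0.819. Merged regions and a −log10 p of at least 3 in both lists moved no count by over 1.5 times. Weak regions are least reliable in the IFNγ list, the shallowest, and weak Cispl regions are missing because that list ends at a stricter p-value.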

Other observations

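Regions next to the listed genes were read in the same lists. The start of Clec16a, 65.5 kb past the first start of Ciita (chr16:10545142-10545947), had levels of 95.2 in Ctrl, 69.8 with Oxali, 68.8 with Cispl, 67.6 under IFNγ and 52.2 with the combination. The start of Cpne2, the gene downstream of Nlrc5 (chr8:94532638-94533399), had levels of 15.1, 25.6, 14.9, 13.1 and 22.6. A region 15.9 kb upstream of Nlrc5 (chr8:94417812-94419053), in no gene, had levels of 4.86, 14.2, 8.65, 6.13 and 14.7, and so was highest in both lists with Oxali. Its highest Ctrl summit lay over 0.2 kb from that of the other lists, and at their summit the Ctrl level was 4.45. The upstream region of Cd74 16.5 kb before its start varied little, with levels of 34.4, 29.0, 30.9, 29.8 and 30.8. These regions were singled out after their values were seen.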
